A study of Mus musculus with 24 samples.

Results

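CD27+CD69+ cells are 1 of 4 natural killer (NK) cell populations that were sorted from mouse tumours, and the 6 libraries whose titles carry that name, of 24 in all, are described here. The other 3 populations were CD11b+CD69-, CD11b+CD69+ and CD27+CD69-, with 6 libraries each. All came from tumours of B16F10, a melanoma line of C57BL/6 origin, implanted under the skin of the flank of female wild-type B6 mice and taken at day 14. No treatment or allele beyond wild type is named for any group, so the sort gate is the only labelled difference between them. Each library was made from 100 sorted cells. The cell type field of the labels reads melanoma, while the design text names NK cells. The titles carry an M number from 1 to 6 that 1 library of each population shares, and what it marks is not stated. P-values therefore measure the spread between these libraries, which may be technical.

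NK cells are innate lymphocytes that lyse target cells with perforin and granzymes and that release chemokines and interferon gamma. In mice they mature from cells that carry CD27, a receptor of the TNF receptor family that binds CD70, toward cells that carry CD11b, the integrin chain encoded by Itgam, and lose CD27. CD69 is a C-type lectin that appears within hours of activation, binds the sphingosine-1-phosphate receptor S1PR1 and keeps lymphocytes in tissue. A CD27+CD69+ gate therefore selects cells with a less mature surface profile and a mark of activation or tissue retention.

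The libraries held between 1213914 and 2671533 counts, and the CD27+CD69+ libraries between 1823628 and 2427734. Values below are CPM (counts relative to the scaled library size), and differences are on the log2 scale as CD27+CD69+ minus the group named. Levels of the sorted markers followed the labels. Cd27 stood at 293, 339 and 371 CPM (lowest, median and highest of 6 libraries) in CD27+CD69+ cells and at 172, 283 and 346 CPM in CD27+CD69- cells, against at most 189 CPM in any CD11b+ library. Cd69 ran from 1060 to 1410 CPM in CD27+CD69+ and from 1050 to 1200 CPM in CD11b+CD69+ cells, above every CD69- library (highest 905 CPM). Itgam ran from 0 to 13.6 CPM in CD27+CD69+ cells, below all CD11b+ libraries. The NK receptors Ncr1 (NKp46) and Klrb1c (NK1.1) were present in all 6 libraries, between 1190 and 1890 CPM and between 845 and 1180 CPM.

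RNA of other cell types was measured with marker lists, summed per library. Fibroblast markers summed to between 279 and 10700 CPM in CD27+CD69- libraries and between 0 and 230 CPM in CD27+CD69+ libraries, where Col1a1, Col1a2, Dcn, Lum, Pdgfra and Fbln2 had no count and Sparc made up most of the sum. Melanoma markers reached 9940 CPM in CD27+CD69- library 6 and 820 CPM in CD27+CD69+ library 6, and erythroid markers 3360 CPM in CD27+CD69+ library 3. Macrophage markers ran from 264 to 333 CPM in CD27+CD69+ cells, of which Ctss alone averaged 258 CPM, while Csf1r, C1qa, Mrc1 and Fcgr1 were at 0 and Cd68 averaged 22 CPM (26.8 CPM in CD27+CD69- cells). T cell markers ran from 2670 to 4350 CPM in CD27+CD69+, from 1360 to 3410 CPM in CD27+CD69-, and from 1140 to 1980 CPM in the CD11b+ libraries. Cd4 and Foxp3 had no count in CD27+CD69+ libraries. In sorted bulk samples, fewer cells of a type and less RNA per cell cannot be told apart.

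CD27+CD69+ cells differed from the mean of the other 3 populations in 441 of 10536 genes tested (4.19%). Of these, 295 were higher (2.8%) and 146 lower (1.39%) at an adjusted p under 0.05. More genes separated CD27+CD69+ cells from CD11b+CD69- cells than from either of the others. Set against CD11b+CD69- cells, 673 genes were higher (6.39%) and 486 lower (4.61%). For CD11b+CD69+ cells the counts were 104 (0.987%) and 96 (0.911%), and for CD27+CD69- cells 58 (0.55%) and 137 (1.3%). CD27+CD69- libraries held 279 to 10700 CPM of fibroblast markers, and the part of RNA of other cells in the 137 was not tested. Many of the 441 genes were not set apart from a neighbour, and such genes are called shared with it below. Of 205 higher genes (1.95%) that failed the rule below, 141 were not higher than in CD27+CD69- cells at an unadjusted p under 0.05. For CD11b+CD69+ cells that number was 84. A missed threshold does not show that levels were equal.

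A gene was counted as particular to CD27+CD69+ cells where it was called against the mean of the other 3 and lay on that side of each of them with an unadjusted p under 0.05. By this rule 90 genes were particular and higher (0.854%) and 57 particular and lower (0.541%). Asking for an adjusted p under 0.05 against each population left 6 higher genes (0.0569%), namely Ms4a4c, Hopx, Ctss, Rpl13, Rps18 and Psmb8, and 5 lower genes (0.0475%), namely Ccl3, Gzma, As3mt, D1Ertd622e and the pseudogene Gm6637. In 7 genes every CD27+CD69+ library was above all 18 other libraries (0.0664%): Ms4a4c, Ctss, Hopx, Jaml, Lpxn, Trmt1l and the pseudogene Rpl36a-ps2, the last with an adjusted p of 0.15 against the mean. In 2 genes every library was below all others (0.019%), Ccl3 and Ptger4. Adjusting the largest of the 3 pairwise p-values over all genes left 1 gene in each direction (0.00949% each), Ms4a4c and Ccl3. As3mt, Trmt1l, Ptger4 and the 2 pseudogenes fall outside the naming rule and were singled out after their values were seen. With the fibroblast and melanoma sums as covariates, 21 genes were particular and higher and 16 lower. Those covariates follow the populations, since the fibroblast ranges of CD27+CD69- and CD27+CD69+ libraries do not overlap. When CD27+CD69- libraries 2, 3, 4 and 6, those with the most fibroblast RNA, were left out, the counts were 93 and 67, of which 74 and 32 were among the 90 and 57. That fit kept only CD27+CD69- libraries 1 and 5, with fibroblast sums of 2996 and 279 CPM and, in library 5, a melanoma sum of 1226 CPM. It therefore lowered the RNA of other cells in that group and did not remove it.

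Ms4a4c, which encodes a multi-pass membrane protein of the MS4A family (chr19:11404770-11427246, GRCm38), had the widest pairwise margin of the 6 strictly higher genes. It stood at 265, 317 and 463 CPM (lowest, median and highest) in CD27+CD69+ libraries. The same values were 94.6, 126 and 172 CPM in CD11b+CD69+, 49, 89.9 and 120 CPM in CD27+CD69-, and 16.4, 22.6 and 25.5 CPM in CD11b+CD69- libraries, so that no library of another group reached the lowest CD27+CD69+ library. The difference from the mean of the others was 2.41 (SE 0.13, adjusted p = 1.91e-12), and the smallest pairwise difference was 1.39 (SE 0.18, adjusted p = 1.66e-05), from CD11b+CD69+ cells. Its relative Ms4a6b was particular too (0.85, SE 0.14, adjusted p = 0.000337), and reads can be shared within this family.

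Ctss encodes cathepsin S, a lysosomal protease that trims the invariant chain of MHC class II (chr3:95526786-95556403). Its lowest, median and highest levels in CD27+CD69+ libraries were 224, 253 and 292 CPM. Every other library was lower, with ranges of 82 to 126 CPM in CD11b+CD69-, 115 to 182 CPM in CD11b+CD69+ and 136 to 219 CPM in CD27+CD69- cells. Against the mean of the others it was higher by 0.94 (SE 0.11, adjusted p = 2.03e-06). Ctss is also on the macrophage marker list, whose other genes were at 0 or between 0 and a mean of 22 CPM (Cd68) in CD27+CD69+ libraries. Cd68 itself did not differ from the mean of the others beyond its spread (0.09, SE 0.37, adjusted p = 0.962).

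Hopx encodes a small homeodomain protein that does not bind DNA itself (chr5:77086988-77115121). Its range was 183 to 264 CPM in CD27+CD69+ libraries (median 230), compared with 107 to 171 CPM in CD11b+CD69-, 113 to 142 CPM in CD11b+CD69+ and 94.1 to 167 CPM in CD27+CD69- libraries. The 3 other populations lay together, and CD27+CD69+ cells differed from them by 0.70, 0.83 and 0.82 (SE 0.14 each). CD27+CD69+ cells lay above the mean by 0.79 (SE 0.11, adjusted p = 2.21e-05). Hopx overlaps an antisense gene, Hopxos, and reads of the pair cannot be told apart with a library chemistry that keeps no strand.

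**Figure D1:**
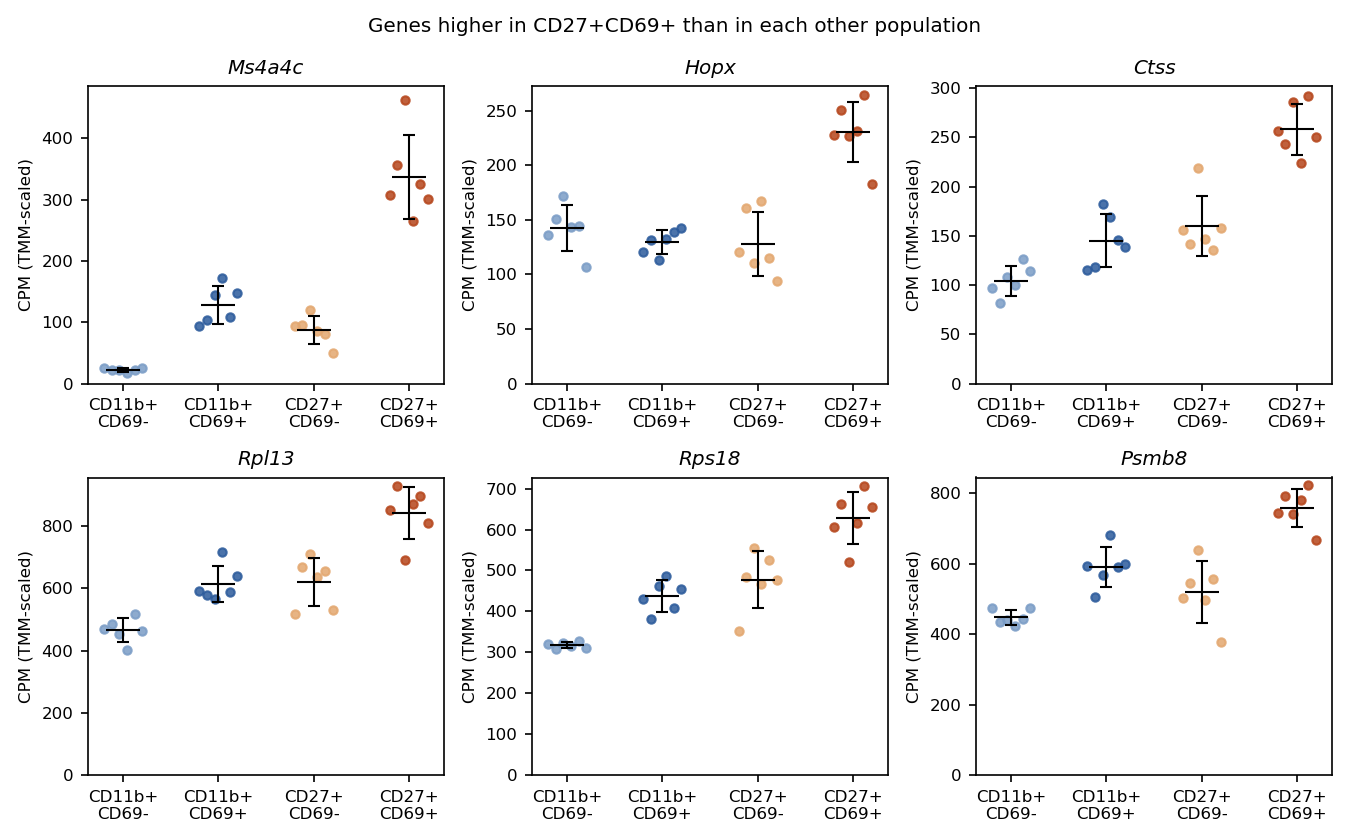
Scaled CPM of 6 genes higher in CD27+CD69+ than in each other population, 1 point per library, with the mean and SD of 6 libraries as bars. For Ms4a4c, Hopx and Ctss the CD27+CD69+ points lie above all 18 others (for Ms4a4c, from 265 CPM up), and for Rpl13, Rps18 and Psmb8 the ranges overlap.

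Jaml, a junctional adhesion molecule that binds the coxsackievirus receptor CXADR, had the largest margin over its nearest population of the particular higher genes. It stood at 120, 167 and 178 CPM in CD27+CD69+ libraries and reached 105 CPM in CD27+CD69-, 88 CPM in CD11b+CD69+ and 6.36 CPM in CD11b+CD69- libraries. The difference from the mean was 3.39 (SE 0.46, adjusted p = 1.94e-05), but the pairwise test against CD27+CD69- cells gave 1.57 (SE 0.60, adjusted p = 0.237). Leupaxin (Lpxn), an adhesion adaptor, ran from 384 to 552 CPM against at most 331 CPM elsewhere, a difference of 1.11 (SE 0.20, adjusted p = 0.000743). Both genes thus separated the libraries without overlap. Jaml lost its particular status in DESeq2, with either set of covariates and in both fits that left out libraries with RNA of other cells. Lpxn lost it with the fibroblast and melanoma covariates and without CD27+CD69- libraries 2, 3, 4 and 6.

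Several receptors of NK cells were in the same group. Cd160, a receptor for the TNF receptor family member HVEM, stood at 304, 446 and 516 CPM against at most 327 CPM in CD27+CD69- and 212 CPM in CD11b+CD69+ libraries, a difference of 1.77 from the mean (SE 0.22, adjusted p = 4.3e-06). Klra6 (Ly49F) was higher by 2.10 (SE 0.34, adjusted p = 0.000229) and Klra1 (Ly49A), an inhibitory receptor for MHC class I, by 0.96 (SE 0.22, adjusted p = 0.00659). Both belong to a family of near-identical genes whose reads can be shared, and both lost particular status without the libraries numbered 5. Of 9 Klra genes tested, 3 were higher and 2 of them particular (2.8% and 0.854% of all genes), none was lower, and the family median was -0.15. Tnfrsf18 (GITR), a costimulatory receptor of the TNF receptor family, stood at 272, 369 and 465 CPM, a difference of 0.59 (SE 0.13, adjusted p = 0.00691), and it was not called without replicates 1 or 5.

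Transcription factors with higher levels were Ikzf2, Myc and Batf. Ikzf2 (Helios), a zinc finger protein of the Ikaros family, ran from 151 to 274 CPM in CD27+CD69+ and from 64 to 164 CPM in CD27+CD69- libraries, with no CD11b+ library above 39.6 CPM. It differed from the mean by 2.62 (SE 0.23, adjusted p = 1.54e-08), and from CD27+CD69- cells by 0.79 (SE 0.30, adjusted p = 0.235). Batf, an AP-1 family member, was at the edge of the call (0.53, SE 0.15, adjusted p = 0.0406). Ikzf2 lost particular status without replicate 5, with either set of covariates and in both fits that left out libraries with RNA of other cells.

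Trac, the constant region of the T cell receptor alpha chain, and Thy1, a GPI-anchored protein of T cells and some innate lymphocytes, were also on the list. Trac stood at 115, 310 and 410 CPM in CD27+CD69+ and at 55.3, 165 and 229 CPM in CD27+CD69- libraries, which overlap, and at most at 76.7 CPM in any CD11b+ library. Its difference from the mean was 2.21 (SE 0.23, adjusted p = 4.91e-07). Trac lost particular status with the fibroblast and melanoma covariates and without CD27+CD69- libraries 2, 3, 4 and 6. Thy1 differed by 1.27 (SE 0.20, adjusted p = 0.000183), with an adjusted p of 0.44 against CD27+CD69- cells, and lost particular status in 10 of 17 alternatives. The T cell marker sum, which includes Trac itself, moved with these genes, and its part in them was not tested. Of the other named higher genes, Spint2 (1.36, SE 0.20), a Kunitz-type protease inhibitor, was not particular once the CD27+CD69- libraries rich in fibroblast RNA were left out, and Xlr4a (1.71, SE 0.38) was not particular in 13 alternatives.

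Ribosomal protein genes made up the largest group. Of 80 genes of the cytosolic ribosome tested, a family gathered by symbol after values were seen, 61 were higher than the mean of the other 3 populations and 49 were particular to CD27+CD69+ cells, beside 2.8% and 0.854% of all genes. None was lower, all 80 differences were positive, and the median was 0.47 (0.02 over all genes tested). Their medians were 0.71 against CD11b+CD69-, 0.37 against CD11b+CD69+ and 0.35 against CD27+CD69- cells. Small differences were thus spread over nearly the whole family. They made up between 2.6% and 3.38% of all counts in CD27+CD69+ libraries, while CD11b+CD69- libraries held 1.77% to 1.98%, CD11b+CD69+ 2.16% to 2.62% and CD27+CD69- 1.58% to 2.95%. The CD27+CD69+ range overlaps those of CD27+CD69- and CD11b+CD69+ libraries through library 3, the lowest of its group and the one with erythroid RNA.

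Single members show the size of the shift. Rpl13, of the large subunit (chr8:123102350-123105244), stood at 691, 861 and 930 CPM in CD27+CD69+ and at 518, 646 and 709 CPM in CD27+CD69- libraries. It differed from the mean by 0.58 (SE 0.07, adjusted p = 9.16e-06) and from CD27+CD69- cells by 0.41 (SE 0.09, adjusted p = 0.0154). Rps18, of the small subunit, differed by 0.63 (SE 0.08, adjusted p = 4.38e-06) and by 0.37 (SE 0.10, adjusted p = 0.0454). Rps18 ran from 521 to 707 CPM in CD27+CD69+ and reached 555 CPM in CD27+CD69- libraries, so that 1 CD27+CD69+ library lies within that range. Rpl36a differed by 0.77 (SE 0.12, adjusted p = 0.000164). Rpl10 is a member whose test was not passed (0.23, SE 0.09, adjusted p = 0.211). Pseudogene copies of ribosomal protein genes are many, and reads shared with them cannot be assigned with certainty.

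The number of particular ribosomal protein genes depended on the libraries and covariates used, while the median did not change sign. It was 26 without replicate 2, 26 without replicate 5, 32 without replicate 1 and 58 without replicate 3. With the fibroblast and melanoma covariates 42 were higher and 5 particular (median 0.49), and with the macrophage covariate 9 were higher (median 0.34, 76 of 80 positive). Leaving out CD27+CD69+ libraries 3 and 6 and CD27+CD69- library 6 gave 54 particular genes. Translation factors, gathered the same way, moved less: 5 of 63 were higher and 4 of them particular (2.8% and 0.854% of all genes), with a median of 0.13. Eef1a1, the factor that delivers aminoacyl-tRNA, differed by 0.39 (SE 0.09, adjusted p = 0.00706).

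**Figure D2:**
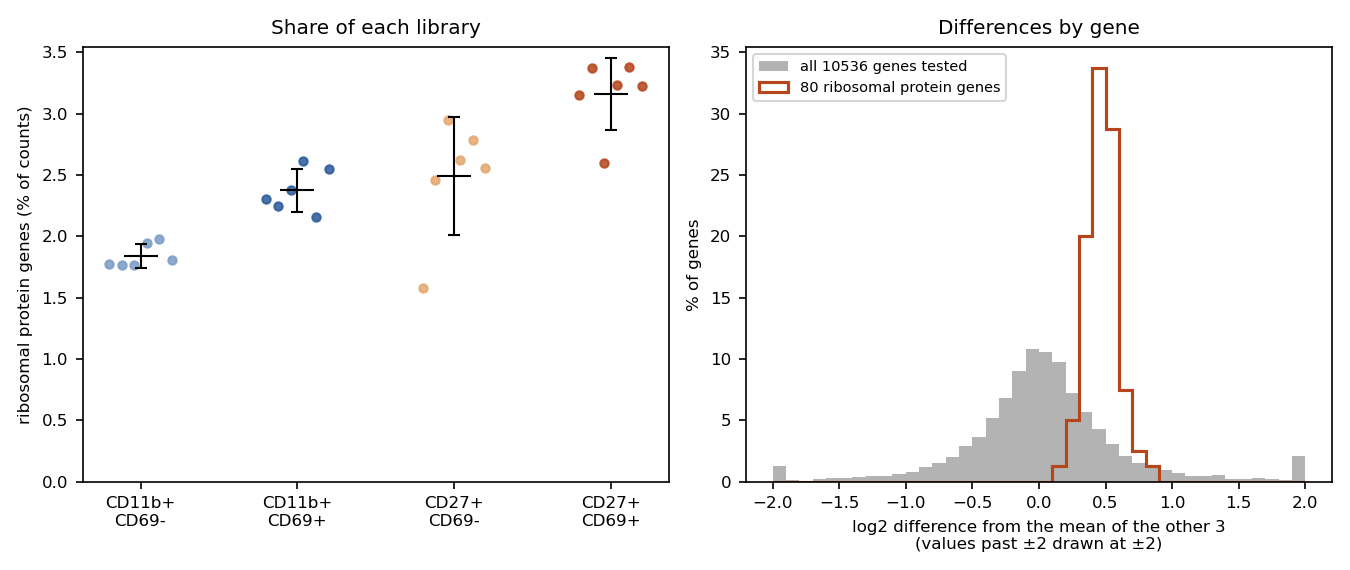
Left, share of each library's counts in 80 cytosolic ribosomal protein genes, with mean and SD of 6 libraries. Right, histograms of log2 differences from the mean of the other 3 populations for those genes (median 0.47) and for all 10536 genes tested (median 0.02), values past 2 drawn at 2.

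Myc, the transcription factor known for driving ribosome production and cell growth, was higher as well. It stood at 259, 355 and 520 CPM in CD27+CD69+ libraries, against 149 to 259 CPM in CD27+CD69-, 203 to 304 CPM in CD11b+CD69+ and 114 to 225 CPM in CD11b+CD69- libraries. Its distance from the mean was 0.81 (SE 0.14, adjusted p = 0.000308). Odc1, ornithine decarboxylase of polyamine synthesis and a known Myc target, was higher by 0.94 (SE 0.13, adjusted p = 3.11e-05). Of 19 genes listed for ribosome biogenesis and Myc targets, 3 were higher, these 2 and the nucleolar chaperone Npm1, and none was lower (median 0.27). The list holds Myc itself, and its count stands beside 2.8% of all genes higher. Npm1 was shared with CD27+CD69- cells (0.32, SE 0.17, adjusted p = 0.534).

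Genes of the immunoproteasome were a smaller group of the same direction. Psmb8, Psmb9 and Psmb10, the catalytic subunits that interferon gamma induces for making MHC class I peptides, were all particular to CD27+CD69+ cells. Psmb8 stood at 668, 763 and 823 CPM, while CD11b+CD69+ cells reached 681 CPM and CD27+CD69- cells 640 CPM, so that 5 of its 6 libraries lay above all others. Its differences were 0.55 from the mean (SE 0.08, adjusted p = 2.54e-05) and 0.36 from CD11b+CD69+ cells (SE 0.10, adjusted p = 0.0442). Psmb9 differed by 0.62 (SE 0.08, adjusted p = 2e-05) and Psmb10 by 0.47 (SE 0.11, adjusted p = 0.00691). Of 48 proteasome genes tested, 9 were higher and 6 particular (2.8% and 0.854% of all genes), with a median of 0.14.

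The wider interferon lists differed in how they stood against CD11b+CD69+ cells. Of 26 interferon gamma response genes 10 were higher, none lower and 3 particular, the catalytic subunits above (median 0.52, and 0.28 against CD11b+CD69+ cells), beside 2.8% and 0.854% of all genes higher and particular. Their summed level ran from 13700 to 14800 CPM in CD27+CD69+, above the 11800 to 13200 CPM of CD11b+CD69+ libraries and overlapping the 9560 to 14600 CPM of CD27+CD69- libraries. Of 31 type I interferon response genes 13 were higher and none lower. Their median was 0.82 against the mean of the others but -0.02 against CD11b+CD69+ cells. Ifi44, of the type I list, had no count in CD11b+CD69- libraries, 29.2 to 149 CPM in CD11b+CD69+ and 23.7 to 91.1 CPM in CD27+CD69+ libraries. Without CD27+CD69+ libraries 3 and 6 and CD27+CD69- library 6 the type I list had 4 higher genes.

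Gzma and Ccl3 led the strictly lower genes. Gzma encodes granzyme A, a serine protease of cytotoxic granules (chr13:113093825-113100981). It stood at 2260, 2630 and 3020 CPM in CD27+CD69+ libraries and at 2510, 4020 and 4440 CPM in CD27+CD69- libraries, 1 of which lies within the CD27+CD69+ range. CD11b+CD69+ libraries ran from 8320 to 10900 CPM and CD11b+CD69- libraries from 11600 to 13700 CPM. The difference from the mean was -1.57 (SE 0.10, adjusted p = 7.72e-12), and that from CD27+CD69- cells -0.55 (SE 0.11, adjusted p = 0.00337).

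Ccl3 encodes the chemokine MIP-1 alpha, which draws leukocytes to inflamed tissue (chr11:83647844-83649355). Its levels were 13.7, 48.4 and 86.5 CPM in CD27+CD69+ libraries. The lowest library elsewhere had 119 CPM, in CD27+CD69- cells, while CD11b+CD69+ libraries ran from 499 to 1260 CPM and CD11b+CD69- libraries from 1310 to 1900 CPM. No library of another group overlapped. The difference was -3.79 from the mean (SE 0.33, adjusted p = 3.9e-08) and -2.23 from CD27+CD69- cells (SE 0.34, adjusted p = 0.000381), the nearest population.

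As3mt, an arsenic methyltransferase, and D1Ertd622e completed the strict list. As3mt ran from 25.2 to 51 CPM in CD27+CD69+ libraries and from 35.6 to 98 CPM in CD27+CD69- libraries, a difference of -0.82 (SE 0.21, adjusted p = 0.0423), and differed from the mean by -1.55 (SE 0.19, adjusted p = 4.09e-06). D1Ertd622e differed by -1.66 (SE 0.24, adjusted p = 3.11e-05). Ptger4, the prostaglandin E2 receptor EP4, ran from 6.42 to 32.3 CPM, below the 38.1 to 161 CPM of all other libraries, and differed by -1.60 (SE 0.26, adjusted p = 0.000195). Ptgs1, the cyclooxygenase that makes prostaglandin precursors, had no count in CD27+CD69+ libraries, which puts it at least 50.4-fold lower than the mean of the others, taking 3 counts over the group as the floor. Against the other population with the lowest mean (4.16 CPM) the bound was 17.7-fold. The adjusted p of Ptgs1 against the mean was 0.0123, and Ptgs1 was also singled out after its values were seen.

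**Figure D3:**
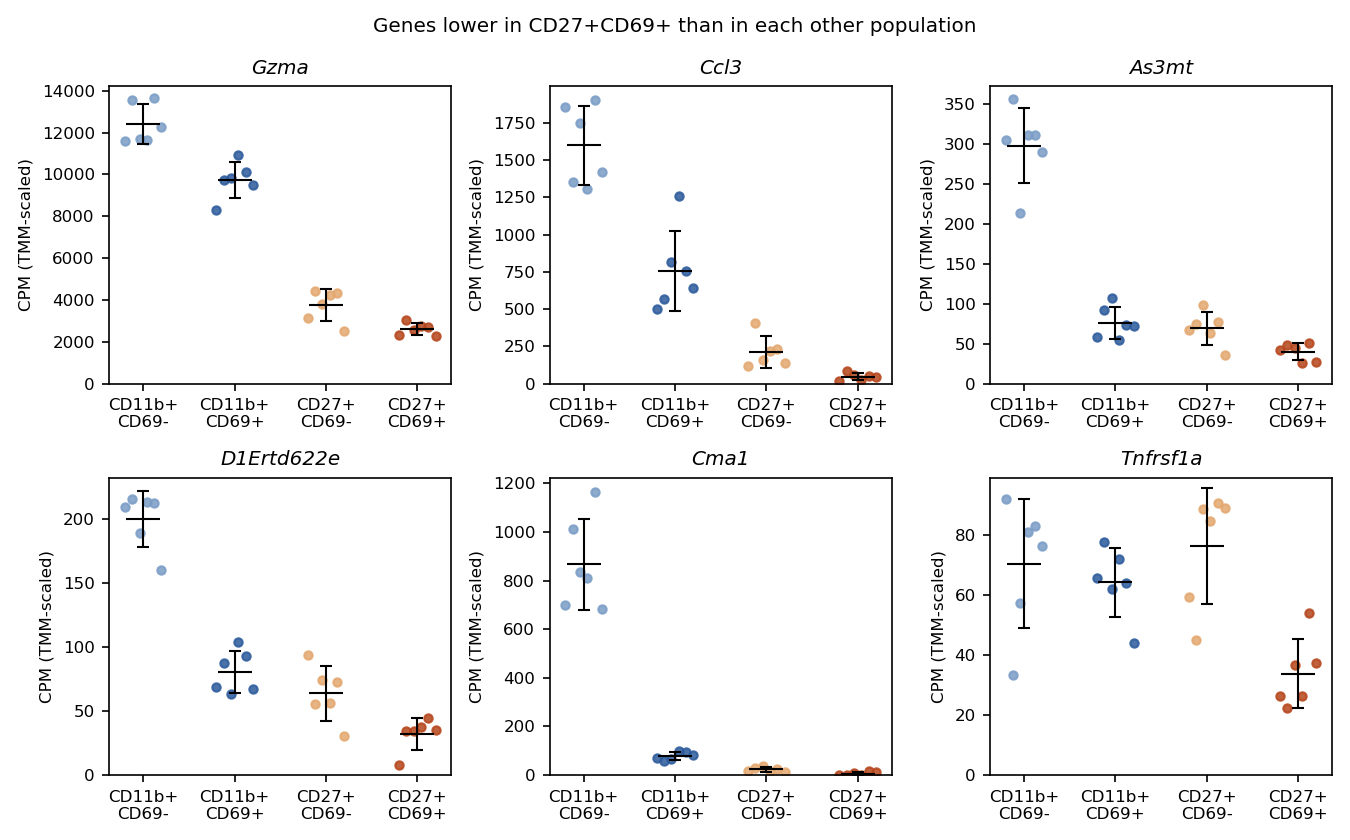
Scaled CPM of 6 genes lower in CD27+CD69+ than in each other population, 1 point per library, with mean and SD of 6 libraries. The CD27+CD69+ points of Ccl3 (13.7 to 86.5 CPM) lie below all 18 others, and those of the other 5 genes overlap at least 1 population.

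Promoters of some of these genes are shown, from windows in which no annotated exon lies, to set the letters beside the values. The lines give the last 100 bases before the first listed start, 5′ to 3′ on the gene's strand, from RefSeq's GRCm38.p6 promoters, with matches to an interferon-stimulated response element (ISRE, read as GAAA, any 2 bases and GAAA, or as TTTC, any 2 bases and TTTC on the other strand) in capitals. Ctss (chr3:95526686-95526785, plus strand) has 1 match, which begins 21 bases before the start. Gzma (chr13:113100982-113101081, minus strand) has 1, which begins 97 bases before it. Ccl3 (chr11:83649379-83649478, minus strand), Hopx (chr5:77115124-77115223, minus strand) and Rpl13 (chr8:123102250-123102349, plus strand) have none. Ms4a4c and As3mt have windows free of annotated exons too, also with no match, and their letters are not printed.
Ctss: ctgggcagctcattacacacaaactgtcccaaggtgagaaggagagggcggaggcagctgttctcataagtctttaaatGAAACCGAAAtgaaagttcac
Hopx: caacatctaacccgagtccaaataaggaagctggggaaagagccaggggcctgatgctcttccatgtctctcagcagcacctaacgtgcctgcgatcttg
Rpl13: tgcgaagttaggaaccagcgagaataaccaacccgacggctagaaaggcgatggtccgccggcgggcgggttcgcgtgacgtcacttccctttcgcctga
Gzma: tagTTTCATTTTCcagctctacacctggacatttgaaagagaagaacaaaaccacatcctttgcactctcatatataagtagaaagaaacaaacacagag
Ccl3: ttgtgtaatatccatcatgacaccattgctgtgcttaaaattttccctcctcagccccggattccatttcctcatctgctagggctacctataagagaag

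Over the 250 bases before the start, the ISRE letters were in 2.81% of the 8035 tested genes with a listed promoter, in 12.7% of the 63 particular higher genes with one (8 genes) and in 2.22% of the 45 particular lower genes. They were in 10% of the 60 ribosomal protein genes with a promoter and in 10.7% of the 28 particular higher genes outside that family (3 genes). An ETS motif (CCGGAAG or CTTCCGG) was in 15.9%, 27% and 11.1%, and in 30% of the ribosomal protein genes. The E-box that Myc binds (CACGTG, the same on both strands) was in 8.75%, 3.17% and 4.44%, and in 6.67% of ribosomal protein genes. Motifs were matched by letters on both strands and counted apart from each other, they were chosen after values were seen, and a match is a description of these windows.

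**Figure D4:**
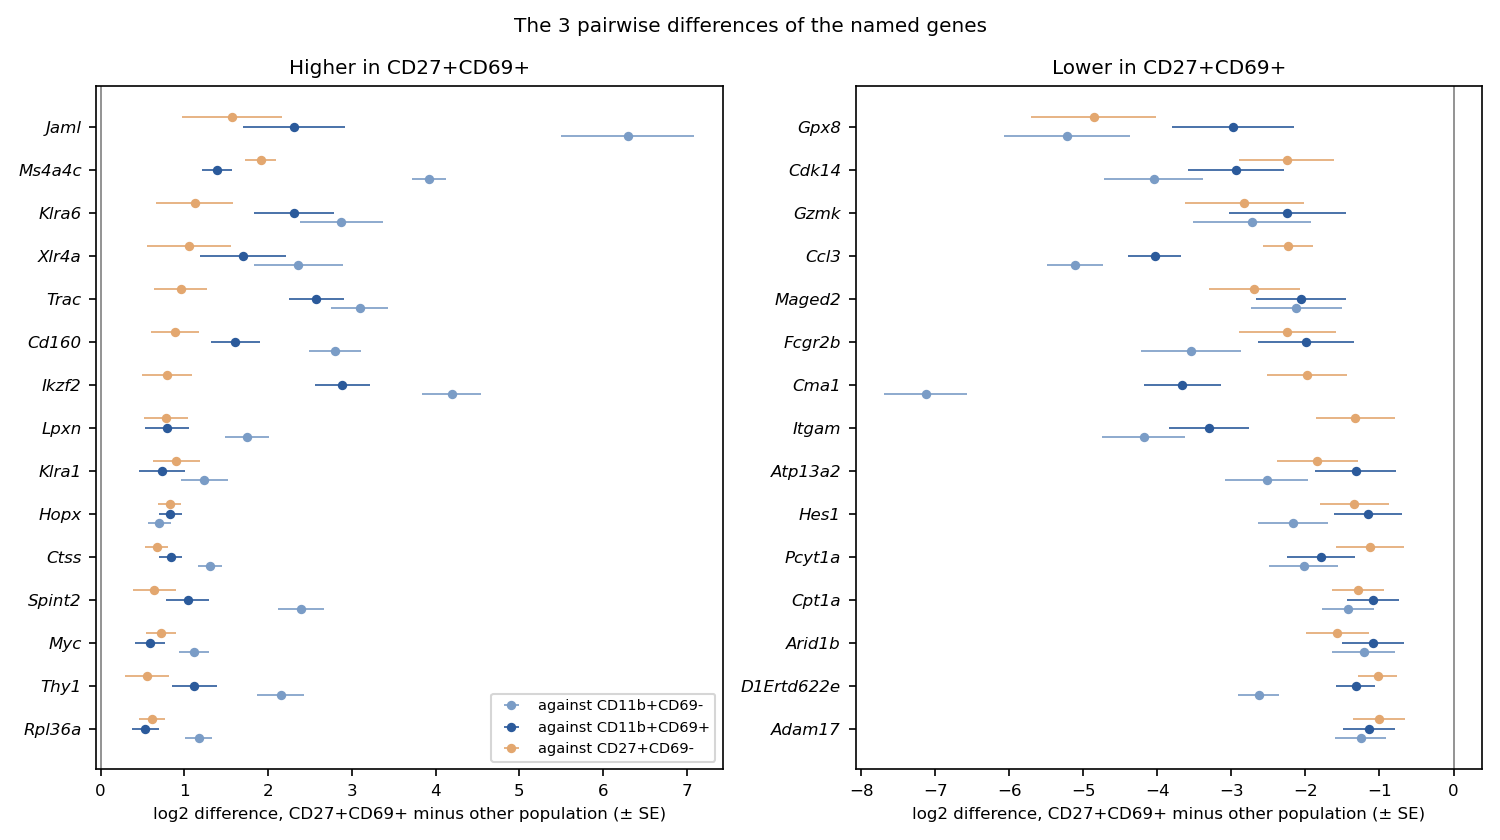
Log2 differences (± SE) of CD27+CD69+ from each of the other 3 populations for the 15 higher and 15 lower genes that the naming rule took, ordered by the smallest of the 3. For 10 of the 15 higher genes the difference from CD27+CD69- cells is the smallest, as for Ikzf2 (0.79), and for 12 of the 15 lower genes that from CD11b+CD69- cells is the largest.

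Other lower genes had low levels, and some of their calls depended on the libraries and settings used. Gpx8, an endoplasmic reticulum peroxidase, had no count in 5 CD27+CD69+ libraries and 11.9 CPM in library 6, against 15.2 to 123 CPM in CD27+CD69- and 45.9 to 113 CPM in CD11b+CD69- libraries (difference -4.35, SE 0.78, adjusted p = 0.000674). CD11b+CD69+ libraries, the nearest population, averaged 16.1 CPM (SD 10.6), a difference of -2.98 (SE 0.82, adjusted p = 0.0583). Cma1, a chymase, ran from 0 to 17.6 CPM against 683 to 1170 CPM in CD11b+CD69- and 12.6 to 37.3 CPM in CD27+CD69- libraries (-4.26, SE 0.49, adjusted p = 3.93e-06). Fcgr2b, the inhibitory receptor for IgG, stood at a median of 2.37 CPM against medians of 24.8 to 84.8 CPM (-2.59, SE 0.60, adjusted p = 0.00815). Levels this low rest on few counts per library. Cdk14 (-3.08, SE 0.60, adjusted p = 0.00155), a cyclin-dependent kinase, was called in all alternatives that tested it. Fcgr2b and Maged2 (-2.29, SE 0.55) were not called in 4 alternatives, Gzmk (-2.60, SE 0.72), another granzyme, in 10 and Arid1b (-1.29, SE 0.37), a chromatin remodelling subunit, in 14.

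Genes of the TNF system stood on both sides. Tnfrsf1a, the main receptor for TNF, was lower than in each population by similar amounts (-1.06, -0.92 and -1.20 in the order in which the populations were introduced, SE 0.25 each). It stood at 22.3, 31.6 and 54.2 CPM in CD27+CD69+ libraries, with medians of 64.9 to 86.8 CPM elsewhere and ranges that overlap. The difference from the mean was -1.06 (SE 0.22, adjusted p = 0.00266), and it remained particular in every alternative that tested it. Adam17, the protease that sheds TNF and its receptors from the surface, differed by -1.13 (SE 0.30, adjusted p = 0.0243) and was not called in 8 alternatives. Of 10 TNF receptor family genes tested, 3 were higher (Cd27, which the gate selected, Tnfrsf18 and Tnfrsf26) and 1 lower, with 1 particular in each direction. Over all genes 2.8% were higher and 1.39% lower, with 0.854% and 0.541% particular in those directions.

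Cpt1a, Pcyt1a and Hes1, genes of metabolism and signalling on the named list, were each not called in 7 alternatives. Cpt1a, which admits fatty acids to mitochondria, stood at 16.2, 20.8 and 26.2 CPM (-1.27, SE 0.30, adjusted p = 0.0118), with medians of 34.8 to 59.5 CPM in the other populations. Pcyt1a, of phosphatidylcholine synthesis, differed by -1.65 (SE 0.41, adjusted p = 0.0144), and Hes1, a repressor downstream of Notch, by -1.56 (SE 0.41, adjusted p = 0.0236). Atp13a2, a lysosomal cation transporter, differed by -1.89 (SE 0.49, adjusted p = 0.0215) and was not called in 7 alternatives either.

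The mature NK cell list was lower as a group. Of 16 genes tested 12 were lower and 1, Ly6c2, higher, beside 1.39% and 2.8% of all genes, and 6 were particular (Cma1, Gzma, Itgam, Rasgrp2, Cx3cr1 and Klf2). The median was -1.70 against the mean and -0.51 against CD27+CD69- cells, so most of the distance was from CD11b+ cells. Klf2, the transcription factor that drives S1pr1 and exit from tissue, stood at 152, 212 and 256 CPM in CD27+CD69+ and at 168, 259 and 354 CPM in CD27+CD69- libraries. Its difference from the mean was -0.97 (SE 0.12, adjusted p = 4.09e-06), and that from CD27+CD69- cells -0.32 (SE 0.14, adjusted p = 0.345). Klf2 lost particular status in 6 alternatives. Itgam, one of the sorted markers, differed from CD27+CD69- cells by -1.33 (SE 0.54, adjusted p = 0.29), with 2.43 to 19.3 CPM there. It encodes CD11b, by which the CD11b+ populations were sorted, so 1 of the 12 lower calls is not independent of the sort. Zeb2 and Irf8, transcription factors of mature NK cells, were lower than the mean (-1.81, SE 0.39, and -1.20, SE 0.14) but shared with CD27+CD69- cells.

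Cytotoxic and secreted products had calls on both sides. Of 19 genes of cytotoxic granules and death ligands 9 were lower and 2 higher (1.39% and 2.8% of all genes), with Gzma and Gzmk particular. The medians of this list were -0.28 against the mean and 0.17 against CD27+CD69- cells. Prf1, the pore former perforin, stood at 492, 623 and 875 CPM in CD27+CD69+ and at 289, 616 and 932 CPM in CD27+CD69- libraries, which do not separate, against at least 1890 CPM in every CD11b+ library (-1.42 from the mean, SE 0.16, adjusted p = 2.03e-06). Gzmc was higher by 3.33 (SE 0.49, adjusted p = 0.000134), with 27.7, 259 and 1170 CPM, but CD11b+CD69+ cells held as much (121, 233 and 473 CPM). Of 16 cytokine and chemokine genes 6 were lower and 3 higher (median -0.12), and Ccl3 and Ccl5 were particular. Ccl5, the chemokine RANTES, stood at 1260, 1470 and 1890 CPM (-1.10, SE 0.11, adjusted p = 2.13e-07) and differed from CD27+CD69- cells by -0.31 (SE 0.13, adjusted p = 0.291). Xcl1, a chemokine that draws cross-presenting dendritic cells, was higher by 1.02 (SE 0.18, adjusted p = 0.000634) and shared with CD11b+CD69+ cells, which ran from 517 to 950 CPM.

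Immediate early genes, which respond within minutes to stimulation or to handling, had a negative median, although Myc was higher. Of 25 tested 5 were lower and 1 higher (1.39% and 2.8% of all genes), with a median of -0.40. Nr4a1, a nuclear receptor induced by antigen receptor signals, stood at 81.8, 159 and 210 CPM in CD27+CD69+ libraries, with medians of 561 CPM in CD11b+CD69-, 233 CPM in CD11b+CD69+ and 248 CPM in CD27+CD69- libraries (-1.14, SE 0.22, adjusted p = 0.00141). Egr1, a zinc finger factor of the same class, stood at 43.8, 75.7 and 114 CPM with medians of 126 to 184 CPM elsewhere (-1.15, SE 0.26, adjusted p = 0.00659). With the macrophage covariate none of the 25 was lower and the median was -0.11.

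The immature NK cell and T cell lists were higher in CD27+CD69+ cells, with small differences from CD27+CD69- cells. The counts of these lists stand beside 2.8% of all genes higher, 1.39% lower and 0.854% particular and higher. Of 16 immature NK cell genes 9 were higher, none lower, and 1, Cd160, particular. The 9 include Cd27, which the gate selected, so that 1 call is not independent of the sort. Their median was 0.89 against the mean and 0.22 against CD27+CD69- cells. Emb, Ltb and Cxcr3 were among them, each with an adjusted p above 0.05 against CD27+CD69- cells. Of 18 genes of ILC1 and tissue residency 7 were higher and none particular, and the 7 include Cd69, the other gated marker. Their summed level was 8000 to 9570 CPM in CD27+CD69+, 7990 to 10100 CPM in CD11b+CD69+ and 4440 to 7090 CPM in CD27+CD69- libraries. Gpr183 (2.55, SE 0.27), an oxysterol receptor, and Cxcr6 (3.82, SE 0.60), the receptor for CXCL16, were not called against CD27+CD69- cells, while Xcl1 was (1.14, SE 0.24, adjusted p = 0.007). Of 15 T cell genes 11 were higher and 1, Trac, particular. Cd3e had at most 4.54 CPM in CD11b+ libraries, 34 to 132 CPM in CD27+CD69- and 70.2 to 183 CPM in CD27+CD69+ libraries, and differed from CD27+CD69- cells by 0.70 (SE 0.44, adjusted p = 0.668).

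**Figure D5:**
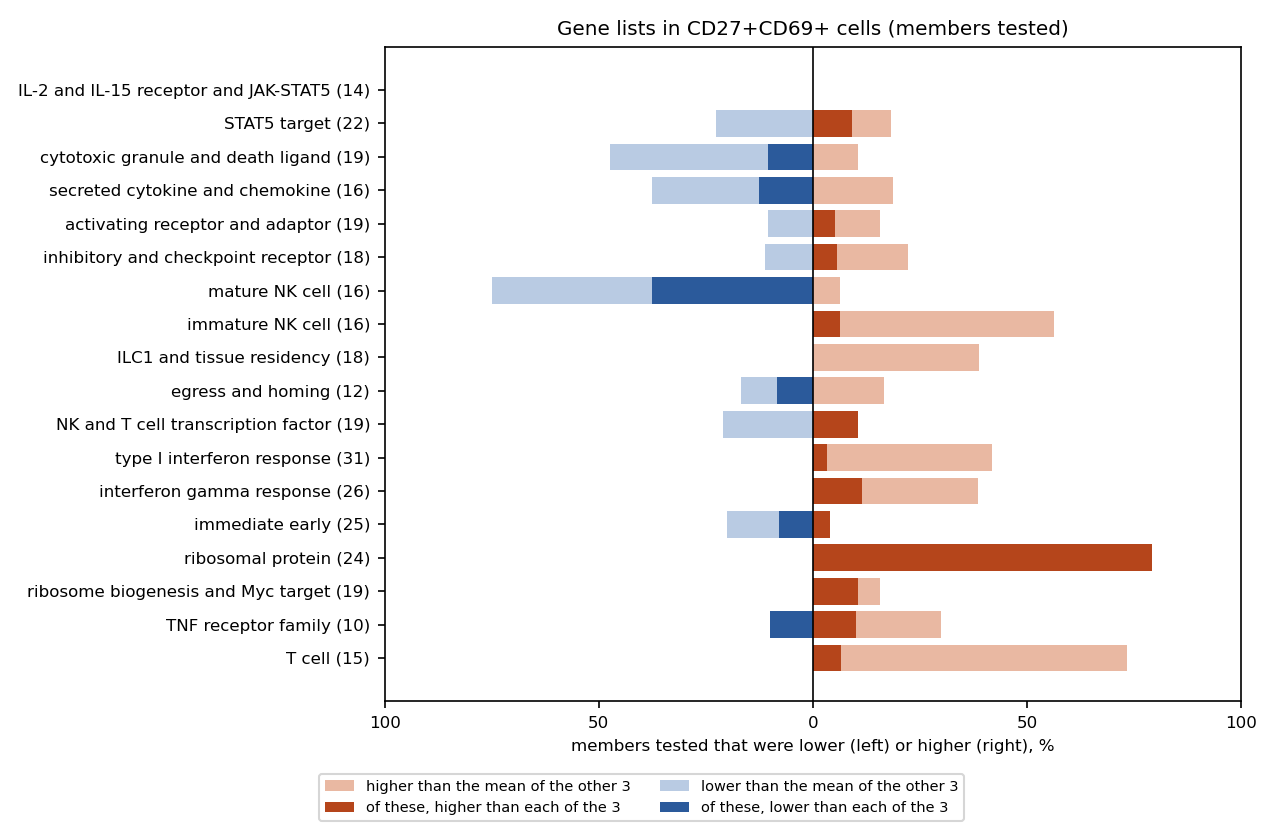
Share of the tested members of each gene list that were higher (right) or lower (left) in CD27+CD69+ cells than the mean of the other 3 populations, with the particular members in dark colour and the number tested in brackets. Ribosomal protein genes are the list with the largest dark share (19 of 24), and mature NK cell genes have the largest on the lower side of the 18 lists drawn (6 of 16).

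Further lists of NK cell biology had calls on both sides, to be read beside the 2.8% of all genes that were higher and the 1.39% that were lower. Of 22 STAT5 target genes 4 were higher (Odc1, Myc, Lta and Pim2) and 5 lower (Gzmb, Id2, Ccnd3, Prf1 and Osm), with Odc1 and Myc particular. Of 19 activating receptors and adaptors 3 were higher (Cd160, Crtam and Slamf6) and 2 lower (Ncr1 and Klrb1c), and Cd160 alone was particular. Among 18 inhibitory and checkpoint receptors, Ctla4, Cd96, Klra7 and Klra1 were higher and Klrg1 and Entpd1 lower, with Klra1 particular. Of 12 genes of egress and homing 2 were higher and 2 lower, and Klf2 was particular.

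The series' title names IL-2 and IL-15 signalling and FLT3LG, and genes of these pathways are given here for CD27+CD69+ cells whatever their test. Flt3l, which encodes the FLT3 ligand that dendritic cells need, stood at 38.2, 61.4 and 75 CPM, against 32.3, 52.5 and 61.4 CPM in CD11b+CD69-, 25.6, 40.3 and 60.1 CPM in CD11b+CD69+ and 13.4, 40.2 and 74.9 CPM in CD27+CD69- libraries. All 4 ranges overlap, and the difference was 0.41 (SE 0.24, adjusted p = 0.478). None of the 14 genes of the IL-2 and IL-15 receptors and the JAK-STAT5 pathway was called (edgeR, median -0.04), with 5 at an unadjusted p under 0.05, 0 called by DESeq2 and 1 by limma-voom. That 1 was Il2ra, the alpha chain of the IL-2 receptor, which stood at 14.1, 22.1 and 39.4 CPM, above every CD69- library (highest 10.6 CPM) but level with CD11b+CD69+ libraries (7.05, 12.1 and 54 CPM). Its difference from the mean was 2.17 (SE 0.71, adjusted p = 0.0884), and it was 3.85 (adjusted p = 0.00182) without the libraries numbered 3. Il2rg, the common gamma chain, did not differ beyond its spread from the mean (0.12, SE 0.09, adjusted p = 0.647) and was higher than in CD27+CD69- cells by 0.51 (SE 0.11, adjusted p = 0.0131). Il2rb differed from the mean by -0.18 (SE 0.14, adjusted p = 0.666) and Il15ra by 0.77 (SE 0.30, adjusted p = 0.173). Il15ra was higher than in CD11b+CD69- cells by 1.22 (SE 0.38, adjusted p = 0.0378).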

How the data were processed

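The deposited table holds raw read counts per gene, 53465 gene identifiers in 24 libraries. Counting was done by the authors with HTSeq on GRCm38, with Picard also named, per the submitters' processing notes; no source used here names the aligner, annotation release or strand setting. Per the labels' protocols, cDNA of 100 cells was amplified full length (SMART-Seq v4, Nextera XT) without molecular identifiers, so duplicates count as reads.

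From those counts, genes with no symbol (0.174% of counts) were kept, filterByExpr of edgeR 4.0.16 (minimum count 10) left 10536 genes, and a quasi-likelihood model with TMM factors (0.958 to 1.06) and 4 group means was fitted to all 24 libraries. Contrasts set CD27+CD69+ against the mean of the other 3 group means and against each of them. P-values were adjusted over all 10536 genes (Benjamini-Hochberg, threshold 0.05), and every adjusted p in the text is edgeR's unless another tool is named. SEs are on the log2 scale. Levels are TMM-scaled CPM; depth limits genes under a few counts per library.

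Genes were named by a rule: the IL-2/IL-15 and sort genes, up to 15 particular genes in each direction with at least 10 CPM ranked by their smallest pairwise difference, and up to 3 genes with the smallest p of each described list, without clone-named genes and pseudogenes. Batf, Cx3cr1, Eef1a1, Egr1, Ly6c2, Ms4a6b, Psmb10, Rasgrp2, Rpl10, Borcs7 and marker genes were chosen after their values were seen, as were the families, the described lists, the motifs and the 2 added alternatives. The populations compared, the 37 gene lists and the tests were chosen with earlier results of these data known. Replicates differed beyond sampling noise (chi-square per degree of freedom 10.3 to 32.3 over 60 pairs). Alternatives were DESeq2 1.42.0, limma-voom (limma 3.58.1), other scaling and filters, thinned counts, covariates (log2 of a marker sum plus 1), a replicate block and left-out libraries. The scripts were tested on simulated data. Promoter windows came from RefSeq (GRCm38.p6) and gene positions from GENCODE M21; 220 of 220 genes looked up were found, and 73 have exons that overlap another gene. Some results are not reported here.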

Additional observations from a re-analysis of the deposited data

Results flagged for a closer look

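Of 196 groups of 6 libraries examined, 24 (12.2%) held a library that stood apart from the other 5; chance gives about 1 in 20.

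In CD27+CD69+ cells, library 5 stood apart for Klra6 (194 CPM, the next 112 CPM) and Gzmk (22.6 CPM, the next 4.65 CPM), and library 1 was low for D1Ertd622e (8.03 CPM, the next 34.2 CPM). Library 6 was low for Thy1 (72.2 CPM, the next 110 CPM) and high for Gpx8 (11.9 CPM, the others 0) and Maged2 (31.5 CPM, the next 10.6 CPM). The same library had the highest fibroblast sum (230 CPM, the next 15.9 CPM) and melanoma sum (820 CPM, the next 117 CPM) of its group. Library 3 had an erythroid sum of 3360 CPM (the next 3.28 CPM) and the lowest ribosomal protein share (2.6%, the next 3.16%).

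In CD27+CD69- cells, library 1 had a ribosomal protein share of 1.58% (the next 2.46%) and 559 CPM of Nr4a1 (the next 286 CPM), and library 3 had 219 CPM of Ctss (the next 158 CPM). Library 6 had the highest macrophage sum (450 CPM, the next 248 CPM) and melanoma sum (9940 CPM, the next 1450 CPM), and library 4 an erythroid sum of 277 CPM (the next 1.58 CPM). In CD11b+CD69+ cells, library 1 was low for Ikzf2 (3.46 CPM, the next 27.2 CPM), and library 3 was high for Cpt1a (96.7 CPM, the next 39.7 CPM), the T cell sum (1980 CPM, the next 1710 CPM) and the fibroblast sum (0.454 CPM, the others 0). In CD11b+CD69- cells, library 1 was low for Spint2 (12.3 CPM, the next 24.5 CPM) and library 5 for Psmb9 (240.0 CPM, the next 268 CPM), library 4 had a fibroblast sum of 7.99 CPM (the next 1.23 CPM) and library 6 an erythroid sum of 2.45 CPM (the others 0).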

How the results depend on the processing

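As reported, 295 genes were higher and 146 lower than the mean of the other 3 populations (66.9% of calls higher), with 90 and 57 particular. Without the filter on low counts 533 were higher (79.2% of calls), DESeq2 called 273 lower (54.9% of its calls higher), the macrophage covariate, most of which is Ctss itself, left 117 and 53, and taking the 18 other libraries as 1 group, which puts the differences between populations into the spread, left 18 and 15. Particular higher genes numbered 143 with limma-voom, 245 without the filter and 21 with the fibroblast and melanoma covariates. Particular lower genes numbered 95 with DESeq2, 37 with limma-voom, 16 with those covariates and 35 with the macrophage covariate. Stricter definitions gave 6 and 5 (adjusted p under 0.05 against each), 1 and 1 (largest p adjusted) and 7 and 2 (no overlap of libraries). Leaving out the 4 libraries of each number in turn gave 188 to 278 higher, 96 to 141 lower, 52 to 111 particular higher and 33 to 69 particular lower genes; the lowest came without replicate 2 (188, 96 and 33) and replicate 5 (52, with 190 higher). Il2rb turned from -0.18 to 0.258 (adjusted p = 0.775) with the macrophage covariate, and Ifi211 to -0.192 (adjusted p = 0.975) with 1 group of 18. The cause was not tested beyond what the construction of each alternative shows. Of 71 named genes called, 16 were called in each of the alternatives that tested them, and of 43 named particular genes 7 were particular in each. Hopx, Rpl13, Rps18, Psmb8 and D1Ertd622e lost particular status with the fibroblast and melanoma covariates.

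Deviations of same-numbered libraries had a mean r of 0.0367 over 36 pairs, 3 of them over 0.1, against -0.00739 over 180 pairs of different numbers. Of 24 libraries 11 correlated best with one of their own number, a hint from the data and not the design. Since most pairs were under 0.1 and the labels do not say what the number marks, it was not taken as a pairing. With the replicate block 291 genes were higher and 157 lower, 96 and 61 of them particular.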

Other observations

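As3mt and Borcs7, neighbours on the same strand of chromosome 19 (46707458 to 46741099 and 46689906 to 46703382, GRCm38), were both lower in CD27+CD69+ cells. Borcs7, a subunit of the complex that positions lysosomes, stood at 9.56, 17.1 and 20.8 CPM in CD27+CD69+, 15.2, 25.6 and 51.1 CPM in CD27+CD69-, 21, 36 and 63 CPM in CD11b+CD69+ and 112, 130 and 202 CPM in CD11b+CD69- libraries. The difference from the mean of the others was -1.72 (SE 0.25, adjusted p = 5.19e-05). Reads that run from Borcs7 into As3mt were not examined, and the shared direction was noticed after values were seen.

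Besides Ptgs1, 5 genes had no count in any CD27+CD69+ library and were called lower. Relative to a floor of 3 counts over the group they were at least 43.8-fold (Dram1), 33.4-fold (Ddah2), 31.7-fold (Tgfbr3), 28.5-fold (Fam109b) and 27.5-fold (P3h4) lower than the mean of the others. Against the other population with the lowest mean the bounds were 11.6-, 3.98-, 4.7-, 6.31- and 12.7-fold, in the same order. These genes stayed particular in 7, 3, 4, 8 and 4 of 17 alternatives, 1 or 2 of which did not test the gene. Tgfbr3 encodes the TGF-beta co-receptor betaglycan and Dram1 a lysosomal membrane protein induced by p53.

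Lists with no call in either direction by edgeR were NF-kB (17 genes), cell cycle (26), hypoxia (14), ATF4 (17) and survival (14), with medians of 0.04, 0.20, -0.16, -0.07 and -0.07. At an unadjusted p under 0.05 they held 8, 4, 4, 3 and 4 genes. DESeq2 called 1 gene of the NF-kB list, 2 of the hypoxia list and 1 of the survival list lower, and limma-voom called 1 of the hypoxia list and 2 of the ATF4 list higher.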
